A study of Mus musculus with 12 samples.

Results

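Domains of accessible chromatin that appeared or disappeared when Hoxc9 was induced in differentiating mouse motor neurons were found by comparing the iHoxc9 list with the list of the no Dox control. A domain of the iHoxc9 list counted as gained when it was at least 150 bp wide and shared no base with any no Dox domain, and a domain of the no Dox list counted as lost by the same rule in the other direction. Of 31062 iHoxc9 domains of that width on chromosomes 1 to 19, X and Y, 3655 were gained, which was 11.8%. Of 45088 no Dox domains, 12516 were lost, which was 27.8%. The remaining 27407 iHoxc9 domains and 32572 no Dox domains overlapped the other list and are called held. The 6 lists of the series together hold 482514 domains on these chromosomes.

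The study followed chromatin accessibility by ATAC-seq, in which a transposase cuts open DNA, while mouse embryonic stem cells became motor neurons. The 12 samples fall into 6 groups of 2: embryoid bodies (EB), progenitors on day 2, before Dox, and 4 groups on day 4, all labelled as embryoid bodies. The iHoxc9 cells came from the line Ainv15(iFlag.Hoxc9), in which Dox switches on an N-terminally Flag-tagged Hoxc9 transgene placed at the HPRT locus. They received 1 µM retinoic acid (RA), 0.5 µM of the Hedgehog agonist SAG, and 3 µg/mL Dox for 48 h. The no Dox control received the same RA and SAG without Dox, and came from the line Ainv15(iFlag.Hoxc6), whose transgene then stayed off. The iHoxc6 and iHoxc10 groups used below were treated like iHoxc9 in their own lines, and EB and progenitors came from Ainv15(iCre).

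A single list of domains stands for both replicates of a group, so no value below has a replicate error and no difference could be tested across samples. Cell line, Dox and the Hoxc9 protein cannot be told apart in this comparison, nor can a difference in how the control list was made: it has 6 columns where the other lists have 3, belongs to a later set of sample records, and carries in its name another day than in its label, and a p threshold that no other list's name carries. The depth of every list is unknown. Intervals in parentheses are 95% intervals for the counting of domains or of motif matches and cover nothing else, and matches within a domain are not independent. The no Dox list is also the longer, with 88806 domains over 29.7 Mb against 63504 over 17.8 Mb in iHoxc9. A domain next to the promoter of Mnx1, Isl1, Isl2, Lhx3, Olig2 and Slc18a3, which mark motor neurons and their progenitors, was present in both lists, and Chat had one in the no Dox list and not in the iHoxc9 list. Promoters of the pluripotency genes Pou5f1, Nanog and Zfp42 had no domain in either list. Those of the mesoderm and endoderm factors Tbx6, Sox17, Gata4 and Myod1 had a domain in both, and all 7 motor neuron promoters also had one in EB, so these promoters did not tell the cell types apart.

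Hox proteins are transcription factors that give cells along the body axis their position. Those of the anterior and central groups mostly read a TAAT core, while the posterior groups, to which Hoxc9 belongs, also read TTTAT or TTTAC, often beside a site for the cofactor PBX. In the spinal cord Hoxc9 is known for setting thoracic motor neuron identity and for holding down Hox genes of the limb levels. The motifs were spelled out as plain letters and searched on both strands, and ATAAA, the other strand of TTTAT, was taken as the posterior core.

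Stretches of 120 bp from gained domains are printed first as examples of the motifs counted below. They were read from GRCm38 on the plus strand and come from 4 of the 5 widest gained domains, in each the stretch with the most ATAAA matches, followed by the gained domain with the most matches to TGATTTAT, a joint PBX and posterior Hox site. Capitals mark ATAAA or TTTAT in the first 4, and TGATTTAT or its other strand in the last.
chr6:11594092-11594211: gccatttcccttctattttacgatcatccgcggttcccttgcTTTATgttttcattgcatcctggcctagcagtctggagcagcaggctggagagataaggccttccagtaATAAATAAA
chr1:122501958-122502077: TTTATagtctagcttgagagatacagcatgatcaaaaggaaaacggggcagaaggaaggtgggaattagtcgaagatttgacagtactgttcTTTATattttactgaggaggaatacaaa
chr12:94561327-94561446: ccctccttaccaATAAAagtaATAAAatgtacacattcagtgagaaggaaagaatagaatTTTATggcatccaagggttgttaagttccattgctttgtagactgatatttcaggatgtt
chr2:108101304-108101423: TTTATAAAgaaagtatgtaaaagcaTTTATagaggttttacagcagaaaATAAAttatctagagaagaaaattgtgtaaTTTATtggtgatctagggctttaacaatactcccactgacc
chr5:22739627-22739746: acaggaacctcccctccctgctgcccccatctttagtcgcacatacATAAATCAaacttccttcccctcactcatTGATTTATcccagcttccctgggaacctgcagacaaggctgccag

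The first stretch lies in a domain of 1018 bp on chromosome 6 (11593573 to 11594590), intergenic and 313 kb from the start of the gene Ndufa4. It held 7 ATAAA matches and was also present in iHoxc10. The second lies in a domain of 986 bp on chromosome 1 (122501536 to 122502521), 934 kb from Ddx18, with 5 ATAAA matches and no overlap with any other list. The next, of 969 bp on chromosome 12 (94560903 to 94561871), was intergenic, 1131 kb from Flrt2, and held 14 ATAAA and 16 TAAT matches. The one of 951 bp on chromosome 2 (108101181 to 108102131), held 14 ATAAA and 19 TAAT matches and lay 811 kb from Kcna4. No gained domain held more ATAAA matches than the ones on chromosomes 12 and 2. The last is a domain of 167 bp on chromosome 5 (22739604 to 22739770), inside the noncoding genes 6030443J06Rik and A930003O13Rik and 6.37 kb from Lhfpl3, with its pair of matches on opposite strands. None of these 5 domains lay at a promoter.

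A stretch each is also shown of 2 of the 5 widest lost domains, with TAAT or ATTA in capitals. ATAAA is not marked in them, so the printed stretches do not compare the classes.
chr10:36810399-36810518: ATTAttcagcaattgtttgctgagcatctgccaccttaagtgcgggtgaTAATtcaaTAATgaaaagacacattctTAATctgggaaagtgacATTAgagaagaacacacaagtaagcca
chr7:37690037-37690156: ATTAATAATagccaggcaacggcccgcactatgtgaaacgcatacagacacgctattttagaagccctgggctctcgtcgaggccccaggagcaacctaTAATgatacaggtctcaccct

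The first of these comes from a lost domain of 1599 bp in an intron of Hs3st5 on chromosome 10 (36809934 to 36811532), with 17 TAAT and 5 ATAAA matches, which iHoxc6 and iHoxc10 kept. The second comes from a lost domain of 1488 bp in an intron of Zfp536 on chromosome 7 (37689383 to 37690870), with 12 TAAT and 8 ATAAA matches, held by progenitors, iHoxc6 and iHoxc10. The widest lost domain, 4318 bp in an intron of Def8 on chromosome 8 (123426258 to 123430575), stood at place 16 of the no Dox list and overlapped a domain in EB, progenitors, iHoxc6 and iHoxc10. The next widest, of 2510 bp on chromosome 17 (13550669 to 13553178) and 1700 bp on chromosome 13 (74528467 to 74530166), were 97.8% and 99.4% repeat sequence, where reads map poorly to a single place. Over all lost domains 3.33% (3.03 to 3.66) were more than 50% repeat, against 2.00% (1.59 to 2.50) of gained domains.

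Gained and lost domains were narrow. The widest gained domain, not printed above, was intergenic and 974 kb from Pik3c3. It was 1062 bp wide, held 5 ATAAA matches and was also present in progenitors, iHoxc6 and iHoxc10. The median width was 247 bp for gained domains, with the middle 80% between 166 and 445 bp, and 262 bp for lost domains, with the middle 80% between 168 and 508 bp. Held domains were wider, with medians of 421 bp in iHoxc9 and 563 bp in no Dox. Gained domains therefore made up 6.58% of the bases in iHoxc9 domains of 150 bp or wider, 1.04 Mb, and lost domains 14.2% of those in no Dox, 3.85 Mb. Of iHoxc9 domains 200 to below 300 bp wide, 22.8% (21.8 to 23.8) were gained, and of those 1000 bp or wider 0.0657% (0.0180 to 0.239), which was 2 of 3043. The matching shares of lost domains were 53.9% (52.9 to 55) and 0.757% (0.589 to 0.974). Just inside the width rule, at 150 to 159 bp, 18.3% (16 to 20.7) of iHoxc9 and 44.0% (41.3 to 46.7) of no Dox domains had no partner. Just outside it, at 140 to 149 bp, the shares were 21.7% (19.7 to 23.7) and 50.3% (48.1 to 52.5).

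**Figure D1:**
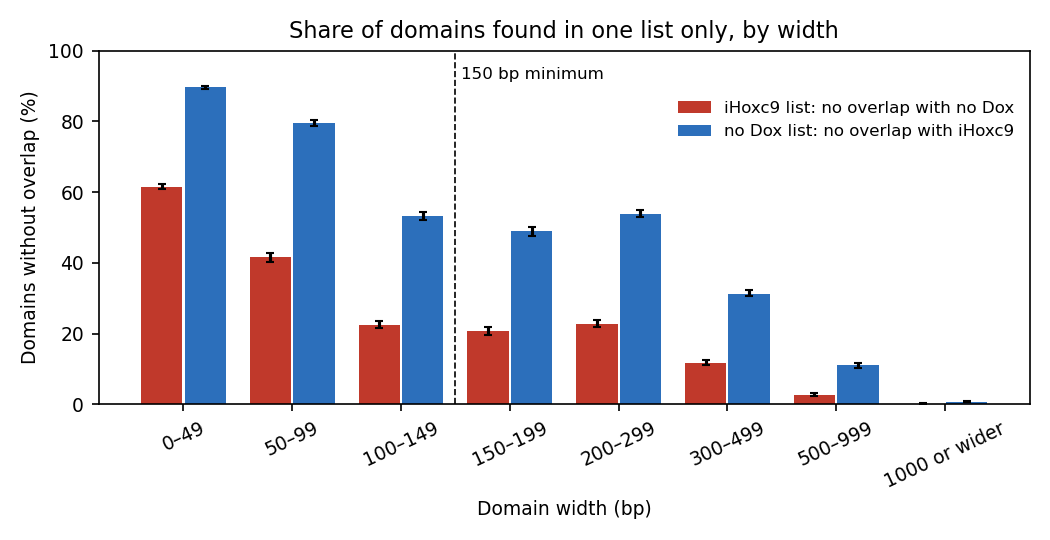
Share of domains (%, vertical axis) with no overlap in the other list, by domain width in bp (horizontal axis), for the iHoxc9 list (red) and the no Dox list (blue), with 95% Wilson intervals as error bars. Unmatched domains were most frequent below 50 bp, at 61.5% and 89.7%, and under 1% at 1000 bp or wider in both lists.

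The deposited lists run roughly from wide to narrow domains, in an order whose meaning is not stated, and both classes came from the middle of it. Gained domains had a median place at 39.4% of the list and lost domains at 41.1%, while held domains stood at 22.3% and 18.9%. With each list divided into 10 equal parts by place, 0.379% (0.255 to 0.563) of iHoxc9 domains of 150 bp or wider were gained in part 1, and 32.7% (30.7 to 34.9) in part 6. In the no Dox list the lost share went from 0.237% (0.155 to 0.361) in part 1 to 72.0% (70.4 to 73.5) in part 6.

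Cutting both lists to equal length left the gained class much the same or enlarged it, depending on how the cut was made. With the no Dox list cut to its 63504 widest domains, 4272 domains were gained, 13.8% (13.4 to 14.1), and 12516 were lost, since the cut removed no domain of 150 bp or wider. With both lists limited to domains of at least 150 bp and then cut to the 31062 widest, 8813 were gained, 28.4% (27.9 to 28.9), and 9744 lost, 31.4% (30.9 to 31.9). The excess of lost over gained domains, 12516 to 3655 as deposited, was 9744 to 8813 once both lists held the same number of wide domains. With lists of equal number, the gained and lost counts can differ only as far as the held counts of the lists differ. The smaller excess was therefore largely set by the cut, and whether list length accounts for the excess as deposited was not tested. That cut sets the narrowest no Dox domain at 286 bp, and a gained domain could then lie on a narrower no Dox domain that the cut had removed. ATAAA was still 3.87 (3.78 to 3.96) times as dense in gained as in held domains under it.

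Domains gained with Hoxc9 carried the posterior Hox core far more often than those lost. ATAAA occurred 7.06 times per kb in gained domains, 1.55 times in held iHoxc9 domains, 2.38 times in lost domains and 1.65 times in held no Dox domains. It was present in 79.7% (78.4 to 81.0) of gained domains, 44.9% (44.0 to 45.8) of lost, 42.7% (42.2 to 43.3) of held iHoxc9 and 54.8% (54.3 to 55.4) of the wider held no Dox domains. Among domains of like width, 200 to below 300 bp, the shares were 79.0% (76.9 to 81.1) for gained, 41.2% (39.8 to 42.6) for lost, and 39.3% (38 to 40.7) and 42.8% (41.2 to 44.3) for held. Of gained domains 8.89% (8.01 to 9.86) held 5 or more ATAAA matches, against 1.06% (0.897 to 1.26) of lost domains.

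The contrast was smaller among domains of like base composition. The median GC content was 43.8% in gained, 48.6% in lost, 57.2% in held iHoxc9 and 54.5% in held no Dox domains, and an AT-rich motif is more frequent in AT-rich sequence. The density ratio of gained to held domains was 4.57 (4.45 to 4.69) as counted and 1.56 after held domains were weighted to the GC content of the gained ones. Away from promoters it was 2.39 (2.32 to 2.45), and against windows of the same length 5 kb to either side it was 1.42 (1.37 to 1.46). With those windows weighted to the GC content of the gained domains it was 1.82. Among domains of 40 to 45% GC, ATAAA was present in 88.3% (86.3 to 90) of gained, 78.9% (77.4 to 80.3) of held iHoxc9 and 62.3% (60.5 to 64.2) of lost domains. For lost domains the ratio to held domains was 1.44 (1.41 to 1.48) as counted. It was below 1 at equal GC content, 0.835, and away from promoters, 0.936 (0.914 to 0.959). Against the flanking windows it was 0.591 (0.578 to 0.605), and 0.919 with these windows weighted to equal GC content.

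Longer posterior sites separated the classes more sharply than the core. TTTATGA occurred 0.774 times per kb in gained and 0.106 times in lost domains, a ratio of 7.27 (6.46 to 8.19) that was 5.17 with lost domains weighted to equal GC content. It was present in 19.6% (18.3 to 20.9) of gained and 3.18% (2.89 to 3.50) of lost domains, and in 4.75% (4.51 to 5.01) and 5.80% (5.55 to 6.06) of held domains. Against held iHoxc9 domains the ratio was 8.19 (7.51 to 8.94), and 2.64 at equal GC content. TTTACGA, the form with a C and a CpG, had 117 matches in gained domains and 37 in the 3.85 Mb of lost domains, a ratio per kb of 11.7 (8.11 to 17.0), and 13.3 at equal GC content.

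Sites joining PBX to a posterior Hox protein followed the same order, and those joining it to an anterior or central one did not. TGATTTAT was present in 8.32% (7.47 to 9.26) of gained and 2.04% (1.80 to 2.30) of lost domains, and in 3.09% (2.89 to 3.30) and 3.43% (3.24 to 3.63) of held domains. TGATTTAC was present in 4.73% (4.09 to 5.47) of gained and 0.735% (0.600 to 0.901) of lost domains, and 1.36% (1.23 to 1.51) and 1.54% (1.41 to 1.68) of held ones. Per kb, gained domains exceeded lost ones 4.51-fold (3.83 to 5.31) and 7.10-fold (5.52 to 9.14) for these 2 sites. At equal GC content the excess was 3.24-fold and 5.29-fold. The anterior form TGATTGAT had a gained to lost ratio of 1.13 (0.891 to 1.44) and the central form TGATTAAT one of 0.905 (0.707 to 1.16), intervals that include 1; at equal GC content the ratios were 0.872 and 0.650. TGATGGAT, another anterior form, was denser in lost domains, with a ratio of 0.601 (0.455 to 0.796).

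The lost domains were richer in these anterior and central PBX sites than the domains that were held. TGATTAAT was 2.99 (2.62 to 3.42) times and TGATGGAT 2.76 (2.43 to 3.13) times as dense in lost as in held no Dox domains, and 1.57 and 1.73 times at equal GC content. TGATTAAT was present in 2.43% (2.17 to 2.71) of lost and 1.87% (1.73 to 2.02) of the wider held no Dox domains. Domains lost in iHoxc6 and iHoxc10 by the same rule had 0.0965 and 0.0792 TGATTAAT matches per kb, against 0.0832 for iHoxc9. In gained domains TGATTAAT was 3.22 (2.52 to 4.12) times as dense as in held iHoxc9 domains, and 1.05 times at equal GC content. The plain TAAT core occurred 7.30 times per kb in lost and 3.92 times in held no Dox domains. The ratio of 1.86 (1.84 to 1.89) came down to 1.08 at equal GC content. Against the flanking windows it was 0.915 (0.903 to 0.928) as counted, and 1.38 with these windows weighted to equal GC content. In gained domains TAAT reached 10.8 per kb, 1.48 (1.44 to 1.51) times the density in lost domains, and 1.06 times at equal GC content.

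**Figure D2:**
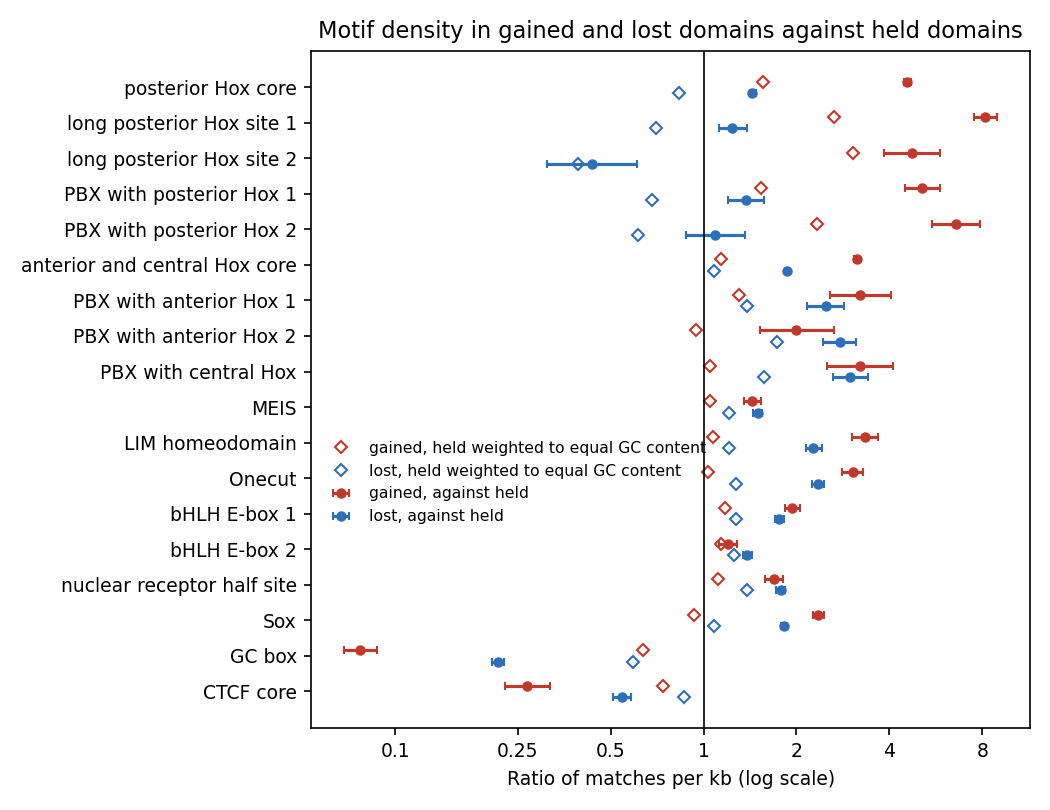
Ratio of motif matches per kb (horizontal log axis) in gained (red) and lost (blue) domains to held domains of the same list, for 18 motifs; filled points carry 95% counting intervals and open diamonds show the ratio with held domains weighted to equal GC content. The posterior Hox forms sit to the right for gained domains, up to 8.19 for the long site TTTATGA, and remain above 1 at equal GC content.

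Motifs of other factors of neural tissue differed less between the classes, and several turned direction with GC content. The E-box CAGATG, bound by proneural bHLH factors, occurred 1.25 times per kb in gained and 1.25 times in lost domains, a ratio of 1.00 (0.941 to 1.06), and 0.647 and 0.711 times in held ones. The MEIS site TGACAG was present in 24.1% (22.7 to 25.5) of gained and 27.7% (26.9 to 28.5) of lost domains, with 29.1% (28.5 to 29.6) and 37.3% (36.8 to 37.9) of the wider held ones. The nuclear receptor site AGGTCA, which retinoic acid receptors use, had a gained to lost ratio of 0.863 (0.804 to 0.927) per kb. The Onecut site ATCAAT had a ratio of 1.21 (1.11 to 1.31) that turned to 0.830 at equal GC content. The LIM homeodomain site TAATTA likewise went from 1.26 (1.13 to 1.39) to 0.900, and the Sox site ACAAT from 1.18 (1.13 to 1.23) to 0.896. The E-box CAGCTG, at 0.900 (0.840 to 0.964), went to 1.12. The GC box GGGCGG, common in promoters, was present in 5.31% (4.63 to 6.08) of gained and 10.9% (10.3 to 11.4) of lost domains, against 47.8% (47.2 to 48.4) and 45.2% (44.6 to 45.7) of held ones. The CTCF core AGGGGGC was present in 3.58% (3.03 to 4.24) of gained and 6.77% (6.34 to 7.22) of lost domains, with 20.7% (20.2 to 21.2) and 23.2% (22.8 to 23.7) in held ones. Per kb the gained to lost ratio of the GC box was 0.474 (0.417 to 0.540), and 0.896 at equal GC content. For the CTCF core it was 0.564 (0.471 to 0.675), and 0.900 at equal GC content.

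A count of all strings of 6 bases, with no weighting for GC content, was led by the posterior core. Of 2057 strings with at least 200 matches in both classes together, CATAAA had the highest gained to lost ratio, 5.96, with 2.57 matches per kb in gained domains. CGTAAA followed at 4.43 and ATAAAA at 4.22, and GATTTA, a part of the joint PBX and posterior Hox site, had rank 6 at 3.79. The lowest ratio, 0.328, belonged to GCGGAC. Against windows 5 kb away CATAAA was 2.82 times as dense, rank 13 of 2036 strings and behind CGTAAA and mostly GC-rich strings such as CGCCGC, while AATAAA was 1.13, TATAAA 1.10 and GATAAA 1.05 times as dense.

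Posterior matches were concentrated at the centres of gained domains. ATAAA rose from 5.07 per kb at 950 to 1000 bp before the centre to 8.98 per kb in the 50 bp just after it. TTTATGA rose from 0.208 to 0.996 per kb between the same positions. A central rise in gained domains was not particular to posterior motifs. Between these positions the E-box CAGATG went from 0.777 to 1.35 per kb and TAAT from 10.2 to 12.2. CAGATG also rose in lost domains, from 0.831 to 1.37 per kb. In lost domains the centre held less ATAAA than the surroundings, 2.81 against 4.11 per kb, and less TTTATGA, 0.129 against 0.174 per kb. The wider surroundings of gained domains were thus also richer in ATAAA than those of lost domains.

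**Figure D3:**
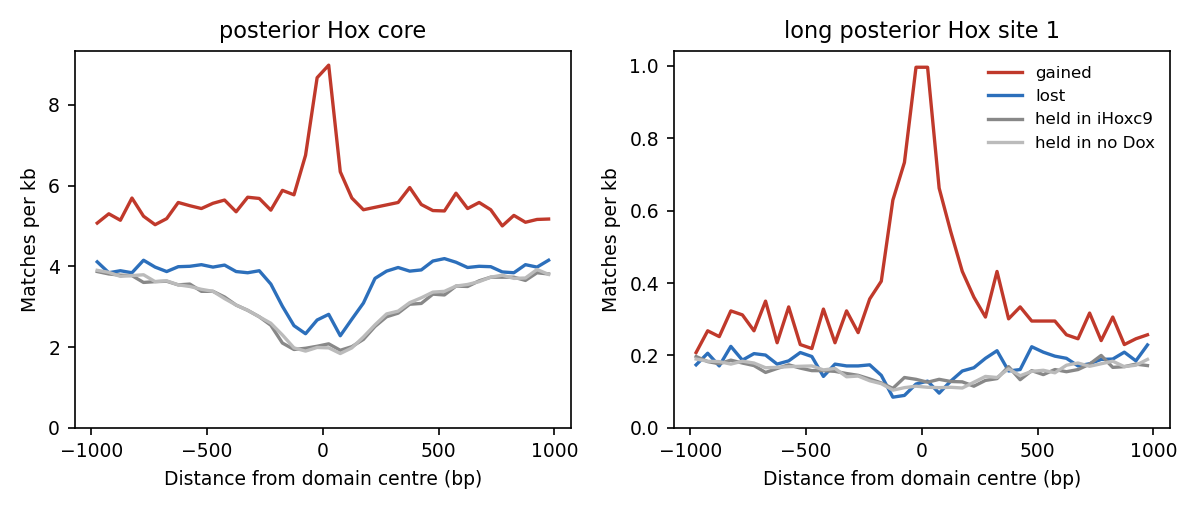
Matches per kb (vertical axis) of the posterior core ATAAA (left) and of the long posterior site TTTATGA (right) in 50 bp steps by distance from the domain centre in bp (horizontal axis), for gained, lost and held domains. The gained domains peak at the centre, at 8.98 and 0.996 per kb, where the other classes show a dip.

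Most gained domains had no counterpart in the progenitor or EB lists. Of the 3655, 532 overlapped a progenitor domain, 14.6% (13.4 to 15.7), and 353 an EB domain, 9.66% (8.74 to 10.7). Of lost domains 57.1% (56.2 to 57.9) overlapped a progenitor domain, and of held iHoxc9 domains 90.2% (89.9 to 90.6). Among domains 200 to below 300 bp wide the progenitor shares were 13.8% (12.2 to 15.7) for gained, 50.2% (48.8 to 51.6) for lost and 81.7% (80.6 to 82.7) for held iHoxc9 domains. The 3123 gained domains that no progenitor domain touched had 7.51 ATAAA matches per kb, and 83.9% (82.6 to 85.1) of them held a match. The 532 already present in progenitors had 4.26 per kb, and 55.1% (50.8 to 59.3) held a match. The 208 present in progenitors and EB had 2.46 per kb, and 22.1% (17.0 to 28.2) of them lay at promoters. Lost domains varied less: ATAAA reached 2.26 per kb in those present in progenitors and 2.58 in those not. The progenitors came from another line than either list compared.

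About as many gained domains were present in another Hox line as in none. Of the 3655, 1350 overlapped an iHoxc10 domain, 36.9% (35.4 to 38.5), and 1182 an iHoxc6 domain, 32.3% (30.8 to 33.9), although the iHoxc6 list is the longer, with 91181 domains against 56232. Both lists held 659 of them and neither held 1782, 48.8% (47.1 to 50.4). Those held by neither had 8.14 ATAAA matches per kb, those shared with iHoxc10 and not iHoxc6 6.96, those shared with iHoxc6 and not iHoxc10 6.06, and those shared with both 5.37. The 1598 gained domains found in no other list of the series had 8.50 per kb, and 87.0% (85.3 to 88.6) of them held a match.

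The lost domains divided differently between the other lines. The iHoxc6 list, from the same cell line as the control, held 64.6% (63.8 to 65.4) of them, and iHoxc10 held 36.5% (35.6 to 37.3). There were 4228 lost domains, 33.8% (33.0 to 34.6), that iHoxc6 kept and iHoxc10 did not, against 706, 5.64% (5.25 to 6.06), of the opposite kind. The longer iHoxc6 list and its cell line, shared with the control, cannot be told apart from the Hox protein here. A further 2186, 17.5% (16.8 to 18.1), were in the no Dox list and in no other list of the series.

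**Figure D4:**
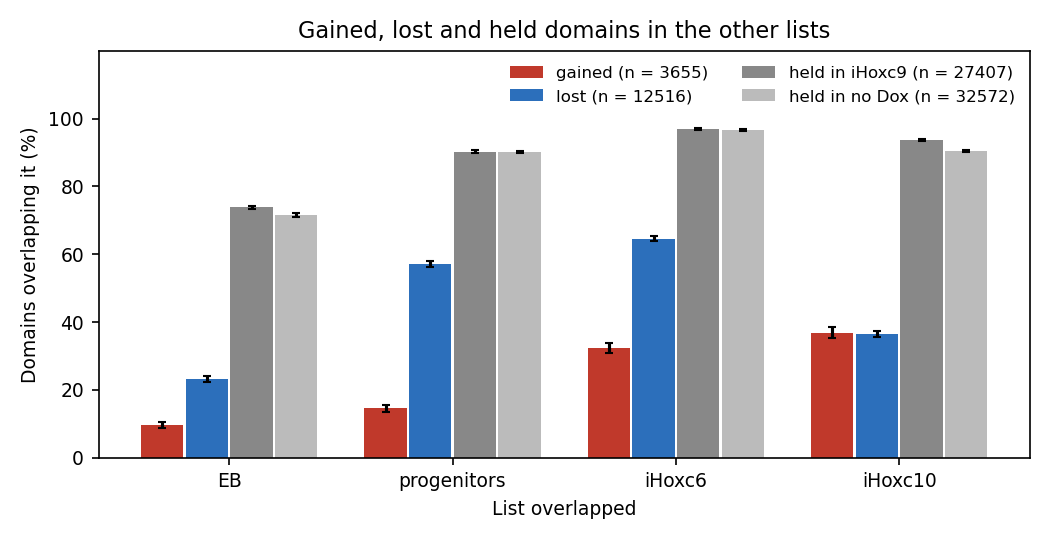
Share of gained, lost and held domains (%, vertical axis) that overlapped a domain of the EB, progenitor, iHoxc6 or iHoxc10 list (horizontal axis), with 95% Wilson intervals. Gained domains were least often present in EB and progenitors, 9.66% and 14.6%, and lost domains most often in iHoxc6, 64.6%.

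The rule applied to iHoxc6 and iHoxc10 against the same no Dox list gave gained classes of like number with less of the posterior core, and since all 3 comparisons share the control their values are set side by side. The gained domains numbered 3639, 3655 and 3114 in the order iHoxc6, iHoxc9, iHoxc10, which was 8.85% (8.58 to 9.13), 11.8% (11.4 to 12.1) and 9.21% (8.91 to 9.52) of each list's domains of that width. ATAAA was present in 44.7% (43.1 to 46.3) of the iHoxc6 gains, 79.7% (78.4 to 81.0) of the iHoxc9 gains and 58.5% (56.8 to 60.3) of the iHoxc10 gains, and the densities were 2.93, 7.06 and 4.39 per kb. TTTATGA reached 0.177, 0.774 and 0.426 per kb in the same order. Median GC content was 47.9%, 43.8% and 47.4%, and promoters took up 7.94% (7.11 to 8.87), 2.76% (2.28 to 3.35) and 6.04% (5.25 to 6.93). The lost domains numbered 5537, 12516 and 11059, and their ATAAA densities were 2.69, 2.38 and 2.42 per kb.

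Gained domains lay away from promoters. Of them 2.76% (2.28 to 3.35) had their centre within 1 kb of the transcription start site (TSS) of a protein-coding transcript, against 8.08% (7.61 to 8.57) of lost, 45.8% (45.2 to 46.4) of held iHoxc9 and 39.6% (39.1 to 40.2) of held no Dox domains. Introns took up 39.9% (38.3 to 41.5) of gained and 40.3% (39.5 to 41.2) of lost domains, intergenic sequence 55.3% (53.7 to 56.9) and 47.2% (46.3 to 48.1), and exons 2.05% (1.64 to 2.56) and 4.39% (4.05 to 4.77). The median distance to a TSS was 85.5 kb for gained and 35.1 kb for lost domains, and 2.65 and 6.64 kb for held ones. The gained share of iHoxc9 domains was 0.798% (0.658 to 0.969) within 1 kb, 10.5% (9.57 to 11.5) at 1 to 10 kb, 16.9% (16.1 to 17.7) at 10 to 100 kb, 26.5% (25.3 to 27.7) at 100 to 500 kb and 35.7% (33.0 to 38.6) beyond 500 kb. The lost share showed no such gradient outside promoters: it was 7.26% (6.84 to 7.71) within 1 kb and between 35.6% and 40.4% in each farther class.

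Both classes were spread over the autosomes and X. The median distance from one gained domain to the next was 395 kb, and 4.21% (3.6 to 4.91) of these distances were within 10 kb. For the more numerous lost domains the median was 96.6 kb and the share 12.4% (11.9 to 13). The gained share ran from 6.80% (5.74 to 8.03) on chromosome 7 and 6.92% (5.84 to 8.18) on chromosome 11 to 14.9% (12.9 to 17.1) on chromosome 16, leaving out chromosome Y with 0 of 35. The lost share varied less, from 24.2% (21.6 to 27.0) on chromosome X to 29.8% (28.1 to 31.5) on chromosome 3, with 2 of 39 on chromosome Y.

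Each domain was given to the protein-coding gene with the nearest gene start, which does not say that the gene is regulated from it. The gene start is the outermost one annotated, and distances to named genes are measured to it, so a domain close to it can fall outside the promoters, which were set by protein-coding transcripts. Of 21911 genes, 2301 had a gained domain, 10.5% (10.1 to 10.9), 6287 a lost domain, 28.7% (28.1 to 29.3), and 1600 had both. The stretch nearest to a gene's start, called its gap, had a median of 47.7 kb, and genes with long gaps collect more domains.

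The genes with the most gained domains stood in long gaps. Of the 10, 5 belong to the list of cadherins and other adhesion genes described below, as do 3 of the 10 genes with the most lost domains. Adgrl2, an adhesion receptor of synapses, had 12 gained among 23 iHoxc9 domains, in a gap of 2293 kb, and 12 lost among 25 no Dox domains. Cdh8, a classical cadherin, had 11 gained of 20 in 3449 kb and 5 lost. Sel1l, a part of the protein degradation machinery of the endoplasmic reticulum, had 11 gained of 16 in 1952 kb. All 11 held ATAAA, as did 79.7% of all gained domains. Celf4, an RNA-binding protein of neurons, had 11 gained of 29 and 19 lost of 44 in 2552 kb. Adgrl3 and the protocadherin Pcdh20 had 9 each, and Lrrn1, Brinp3, Flrt2 and Pcdh9 had 8 each. Lrrn1, a leucine-rich repeat protein of neurons, had its 8 in the shortest gap of these 10 genes, 632 kb, and 3 lost domains. Of the 95 gained domains at these 10 genes, 6 overlapped a progenitor domain, against 14.6% of all gained domains.

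The genes with the most lost domains included transcription factors and a Hox cofactor. Meis1, a TALE homeodomain cofactor of Hox proteins, had 22 lost among 37 no Dox domains in a gap of 985 kb, and 2 gained. Irx3, which divides the ventral neural tube into progenitor zones, had 14 lost of 20 in 522 kb, and 2 gained. The zinc finger genes Zfp608 and Zfp516 had 24 and 14 lost domains, with 3 and 0 gained. Tenm3 and Tenm4, which encode teneurins, had 17 and 15, the cadherin gene Cdh11 had 15, and Celf4 had 19. Zfp386 and Prl2c3 stood apart in sequence. Zfp386 had 29 lost of 56 in 1267 kb, 9 of them more than 50% repeat, and 0 of the 29 overlapped an iHoxc10 domain while 14 overlapped an iHoxc6 domain. Prl2c3, in a multigene family of prolactin relatives, had 23 lost of 29 within a gap of 219.8 kb, 10 of them more than 50% repeat, so reads from its copies may have been placed uncertainly.

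The gene lists below were drawn up with earlier results of these data known, and their shares are set against all genes, of whose nearest domains 11.8% (11.4 to 12.1) were gained and 27.8% (27.3 to 28.2) lost. Genes for cadherins and other adhesion proteins had the highest gained share, 117 of 381 iHoxc9 domains or 30.7% (26.3 to 35.5). Of the 35 genes 28 had a gained and 32 a lost domain. Their gaps were long, with a median of 1952 kb, and per Mb of gap they had 1.78 gained domains against 1.34 over all genes. Among domains over 100 kb from a TSS, where the gained share is higher everywhere, it was 37.2% (31.3 to 43.6) for this list and 28.2% (27.1 to 29.4) over all genes. Besides Adgrl2 and Cdh8, the genes with the most were Adgrl3 with 9 and Pcdh9 and Flrt2 with 8 each, and the most lost domains were at Tenm3, Tenm4, Cdh11 and Nrxn3, with 14 for the last.

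Axon guidance genes, whose products steer growth cones, had 52 gained of 272 domains, 19.1% (14.9 to 24.2), in 22 of 37 genes. Epha4, Robo1 and Epha7 had 5 each and Epha5 had 4, the nearest 4.41 kb from its start. Beyond 100 kb the list's gained share was 24.6% (18.2 to 32.4), with 28.2% over all genes. Lost domains numbered 139 of 408, 34.1% (29.6 to 38.8), in 31 genes, led by the guidance receptor gene Robo2 with 11, the nearest 0.854 kb from its start, Efna5 with 10, and Nrp1 and Plxna2 with 8 each.

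Motor neuron identity genes had 11 gained of 68 domains, 16.2% (9.28 to 26.7), in 6 of 15 genes. Of the 11, 6 were nearest to Isl1, a LIM homeodomain factor of motor neurons, which had 13 iHoxc9 domains in all. The nearest lay 4.55 kb from its start, and Isl1 had 3 lost domains. Neurog2, Lhx4 and Nefm had 1 each. Of no Dox domains 36 of 106 were lost, 34.0% (25.6 to 43.4), in 12 genes, with 7 at Lmo4, 6 at Olig2, 4 at Isl2 and 3 at Slc18a3, the transporter gene inside the Chat locus.

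Genes that divide motor neurons into columns and pools had 21 gained of 105 domains, 20% (13.5 to 28.6), in 9 of 17 genes. The axon guidance receptor gene Epha4 and the cadherin gene Cdh20 had 5 each, Foxp1, a marker of limb-level motor neurons and of preganglionic ones, had 4, and Zeb2 had 2. Lost domains were 46 of 139, 33.1% (25.8 to 41.3), in 15 genes, with 8 at Zeb2, 7 at Foxp1, 5 at Epha4 and 4 at Runx1. Foxp1 thus had 4 gained domains among 16 and 7 lost among 15.

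Ventral progenitor and proneural genes had gained shares below the 11.8% over all genes, while the intervals of the other lists given here include it. Beyond 100 kb the gained share was 8.00% (2.22 to 25.0) for ventral progenitor factors. It was 16.7% (5.84 to 39.2) for proneural and Notch genes and 28.2% (27.1 to 29.4) over all genes. Ventral progenitor factors had 4 gained of 86, 4.65% (1.82 to 11.4), which was 2 at Irx3 and 1 each at Nkx2-2 and Foxa2, and 68 lost of 171, 39.8% (32.7 to 47.2), in 14 of 15 genes. Irx3 had 14 of these, Sox2 13 of its 30 domains, Foxa2 9 and Olig2 6. Proneural and Notch genes had 4 gained of 106, 3.77% (1.48 to 9.30), at Jag1, Neurog2 and Atoh1, and 37 lost of 149, 24.8% (18.6 to 32.3), led by Jag1 with 6, Neurog1 and Atoh1 with 5 each and Neurod1 with 4. Dorsal neural tube and crest factors had 4 gained of 49, 8.16% (3.22 to 19.2), at Pax7, Sox10, Lmx1a and Pax3, and 39 lost of 92, 42.4% (32.8 to 52.6), with 8 at Sox9, 5 each at Foxd3 and Pax7 and 4 at Zic1. Spinal interneuron factors had 5 gained of 46, 10.9% (4.73 to 23.0), with 2 each at Lmx1b and En1 and 1 at Gata2, and 25 lost of 71, 35.2% (25.1 to 46.8), with 5 each at Foxd3 and Lmx1b and 4 each at Lhx5 and Pax2. Onecut and Ebf factors had 4 gained of 31, 12.9% (5.13 to 28.9), at Ebf2, Onecut2 and Ebf3, and 25 lost of 67, 37.3% (26.7 to 49.3), 11 of them at Ebf3, 6 at Ebf1 and 4 at Onecut1.

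Among genes of the signals that pattern the culture, the retinoic acid list had a lost share above that of all genes at all distances together. The lost share was also above it, interval included, for the ventral progenitor, dorsal and crest, axon guidance, adhesion, and mesoderm and endoderm lists. Hox cofactors and Hox groups 1 to 5, given below, were likewise above it. The gained share of the retinoic acid list and both Hedgehog shares had intervals that include those of all genes. Beyond 100 kb from a TSS the lost share was 42.9% (24.5 to 63.5) for the retinoic acid list and 39.9% (38.9 to 41.0) over all genes. Retinoic acid genes had 5 gained of 47, 10.6% (4.63 to 22.6), and 43 lost of 96, 44.8% (35.2 to 54.7), in 17 of 18 genes. Cyp26b1, which degrades retinoic acid, had 10 lost of 18, the nearest 0.670 kb from its start. The receptor gene Rarb had 5 lost and 1 gained, and the binding protein gene Crabp2 had 4 lost of its 5 no Dox domains. Aldh1a2, which makes retinoic acid, had 1 gained domain 1.77 kb from its start, and Rdh10 had 2. Hedgehog genes had 7 gained of 57, 12.3% (6.08 to 23.2), with 3 at Hhip and 2 at Gli3, and 25 lost of 76, 32.9% (23.4 to 44.1), with 6 at Gli2 and 5 each at Shh and Ptch1. Caudal and axial timing genes had 1 gained of 22, at Nr6a1, and 12 lost of 36, 33.3% (20.2 to 49.7), of which Sall4 had 5.

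The remaining lists served as comparison. Pluripotency genes had 5 gained of 28, 17.9% (7.88 to 35.6), 3 of them at Dppa4, and 11 lost of 35, 31.4% (18.6 to 48.0). Mesoderm and endoderm factors had 7 gained of 38, 18.4% (9.22 to 33.4), with 2 each at Gata6 and Meox2, and 26 lost of 61, 42.6% (31.0 to 55.1), led by Twist1 with 5. Ribosomal protein genes, which every cell uses, had 1 gained of 32, 3.12% (0.554 to 15.7), and 14 lost of 51, 27.5% (17.1 to 40.9), close to the lost share of all genes. Several of these intervals include the share over all genes, while that of the lost share of mesoderm and endoderm factors lies above it. No difference between lists was tested.

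**Figure D5:**
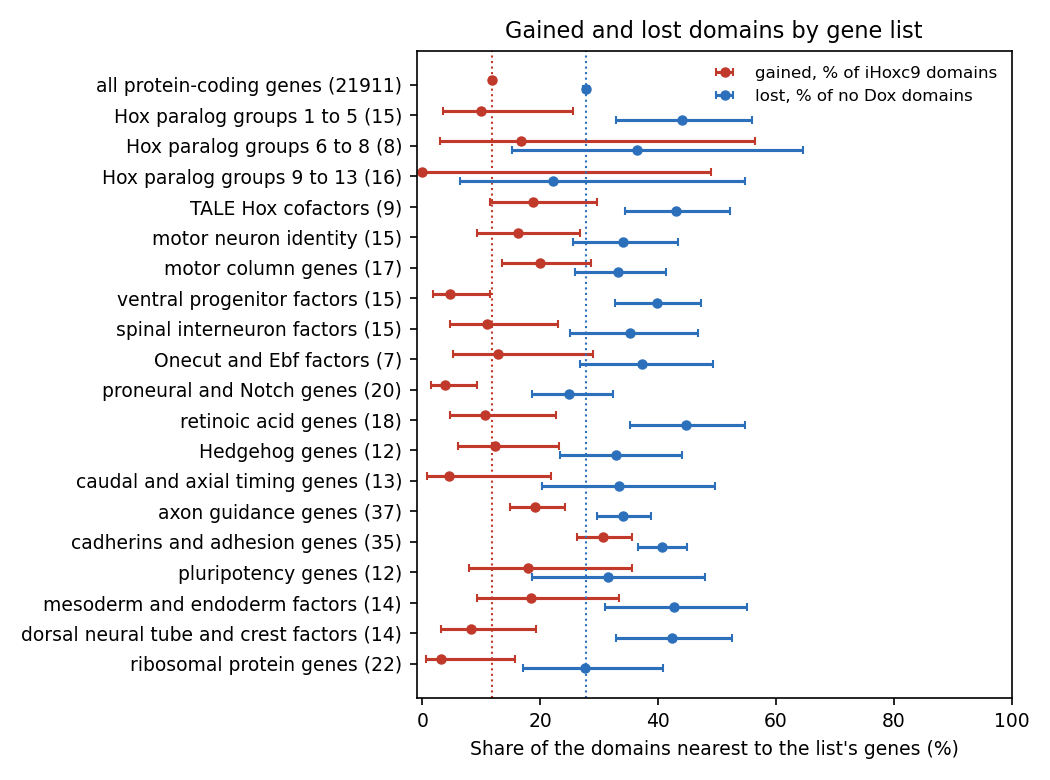
Gained domains as a share of iHoxc9 domains (red) and lost domains as a share of no Dox domains (blue), in % (horizontal axis), nearest to the genes of each list, with the number of genes in parentheses and 95% Wilson intervals. Dotted lines mark all genes, at 11.8% and 27.8%; cadherins and adhesion genes stand highest for gained domains, at 30.7%.

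The cofactors that bind DNA with Hox proteins belong to the TALE homeodomain families Pbx, Meis and Pknox. Of their 9 genes 5 had gained and the same number lost domains, with 13 gained of 69, 18.8% (11.4 to 29.6), and 49 lost of 114, 43.0% (34.3 to 52.2). Meis2 had 3 gained and 11 lost, Pknox2 2 gained and 4 lost, and Pbx3 2 gained and 2 lost. Meis1 held 22 of the 49 lost domains.

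Within 5 kb of the 4 clusters there were 7 gained and 36 lost domains. In HoxA, HoxB, HoxC and HoxD there were 12, 7, 7 and 11 held iHoxc9 domains, and 17, 15, 9 and 14 held no Dox domains. Over all domains of that width, 11.8% of iHoxc9 domains were gained and 27.8% of no Dox domains lost. By nearest gene, Hox genes of groups 1 to 5 had 30 lost of 68 no Dox domains, 44.1% (32.9 to 55.9), in 9 of 15 genes, and 3 gained of 30. Most no Dox domains nearest to Hox genes belonged to these groups, and the intervals of the lost shares overlap between the groups. Hoxb2 had 6 lost of 10 and Hoxc4 6 of 15, while Hoxa2 had 4 of 6. Groups 6 to 8 had 4 lost of 11, 36.4% (15.2 to 64.6), with 2 at Hoxb7 and 1 each at Hoxb8 and Hoxc6, and 1 gained of 6, at Hoxc6. Groups 9 to 13 had 2 lost of 9, 22.2% (6.32 to 54.7), at Hoxd10 and Hoxb9. They had 0 gained of 4 iHoxc9 domains, 0% (0 to 49.0), an interval that includes the share over all genes.

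HoxB, on chromosome 11, had the most lost domains, 17, covering 6193 bp, beside 15 held no Dox domains, and 1 gained domain. The lost domains ran from 0.178 kb upstream of Hoxb9 (96271157 to 96271400) through the promoters of Hoxb8 and Hoxb7 and the introns of Hoxb3 to an exon of Hoxb2 (96352527 to 96353194). Their widest was 735 bp, 3.00 kb upstream of Hoxb4 (96314904 to 96315638), and was present in EB, progenitors, iHoxc6 and iHoxc10. HoxA, on chromosome 6, had 8 lost domains, the largest in an intron of Hoxa3 with 608 bp (52211439 to 52212046). HoxC, on chromosome 15, had 6, the largest in an intron of Hoxc4 with 612 bp (103029214 to 103029825). It held 9 TAAT matches and was kept by progenitors, iHoxc6 and iHoxc10. HoxD, on chromosome 2, had 5, among them 630 bp at the Hoxd10 promoter (74691486 to 74692115) and 874 bp in Hoxd4 and Hoxd3 (74726777 to 74727650).

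The 7 gained domains of the clusters all held ATAAA, as did 79.7% of all gained domains. In HoxC they lay 0.096 kb upstream of the Hoxc6 start (102998064 to 102998257), in Hoxc6 and Hoxc5 (103009930 to 103010195) with 5 ATAAA matches, and 0.085 kb upstream of the Hoxc4 start (103018712 to 103018986). In HoxD 1 gained domain of 441 bp in Hoxd4 and Hoxd3 (74721708 to 74722148) had 7 matches and was also present in iHoxc6 and iHoxc10. In HoxA 1 lay 0.067 kb upstream of the Hoxa3 start (52213268 to 52213538) with 4 matches and another within Hoxa3 (52178427 to 52178650) with 3, and neither was present in another list.

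Hoxc9 itself had a held domain over its coding sequence in both lists, 469 bp in iHoxc9 (102981652 to 102982120) and 266 bp in no Dox (102981527 to 102981792). Domains of the transgene and of the native gene cannot be told apart there, so the labels could not be checked from it.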

How the data were processed

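ATAC-seq was made on mouse embryonic stem cell cultures, and per the labels and methods the authors aligned reads to mm10 with Bowtie2 2.2.2, with Picard 2.8.2 in the processing notes, and called domains with DomainFinder; thresholds are not given in the sources used here beyond a p threshold in the name of the no Dox list. The deposited files hold other values than counts or scores: chromosome, start and end of each domain, 1 list for both replicates of a group, with 3 constant columns besides in the no Dox list. Starts were read as in BED and printed counting from 1. Read depth is unknown, so precision is given as 95% Wilson intervals for shares and log-rate intervals for ratios, covering counting error only.

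Overlap meant at least 1 bp. Sequence came from GRCm38 (RefSeq), genes from GENCODE M21; a promoter lay within 1 kb of the start of a protein-coding transcript, nearest genes were found by gene start, and exon, intron and intergenic were assigned by domain centre, promoters first. GC weighting used bins of 5 percentage points. Genes named were Hox genes, up to 4 per list and direction with the most domains among 19 lists of 304 genes, and the 10 with the most gained or lost domains. Sites named were the 5 widest of each class, those with the most TGATTTAT and ATAAA, and those in Hox clusters. A few items that this rule names are not reported here. Members and lists were chosen with earlier results of these data known. Comparisons of 2 lists have no test across samples. Alternatives were other minimum widths, overlap rules, promoter widths, motifs and backgrounds and lists of equal length; the cut by place in the list and the ratio away from promoters were added after seeing the data. Computations used Python 3.11.15, NumPy 2.4.6, pandas 2.3.3, SciPy 1.17.1 and Matplotlib 3.10.9, and simulated domains with planted motifs were used to test the code.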

Additional observations from a re-analysis of the deposited data

Results flagged for a closer look

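The iHoxc9 list held 1 domain on the mitochondrial sequence, which the comparison left out, and the no Dox list held 0. It ran from base 2 to 16275 and was 16274 bp wide. The other 4 lists also held 1 each, so the absence belonged to the control list. How the control list was made was not tested.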

How the results depend on the processing

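No paired analysis was possible because each group has 1 list made from both replicates, and no replicate could be left out. With lists of domains of 150 bp or wider cut to equal length, 8813 domains were gained, the posterior motif ratios were 3.87 (gained) and 1.52 (lost), and the promoter shares 6.09% and 11.4%. A minimum width of 300 bp gave 1189 gained and 4629 lost domains, ratios of 5.06 and 1.56 and a promoter share of gained domains of 1.93%. One of 500 bp gave 241 and 1302, ratios of 6.49 and 1.73, and shares of 0.415% and 7.45%. No minimum gave 19562 and 47742, ratios of 3.49 and 1.23, and shares of 6.41% and 9.20%. Counting domains within 200 bp as overlapping gave shares of 2.05% and 7.52%. Counting a domain as held if 50% of it was covered gave 6100 and 24821 domains, ratios of 4.33 and 1.41, and shares of 5.41% and 16.2%. Ratios were 1.56 and 0.835 at equal GC content, 4.08 and 1.35 in the central 150 bp, and 5.30 and 1.33 for a longer consensus. They were 1.42 and 0.591 against windows 5 kb away, which were not weighted for GC content. Away from promoters, an alternative chosen after seeing the data, they were 2.39 and 0.936. Promoter shares were 2.22% and 4.59% within 500 bp and 8.70% and 20.7% within 5 kb of a TSS. Merging close domains gave 3655 gained and 12512 lost domains. Cutting the lists as deposited to equal length by width gave 4272 and 12516, which put gained domains at 13.8% of the list, and cutting by place in the list, chosen after seeing the data, gave 4271 and 12479, with 13.7%. Under these 3 the motif ratios and promoter shares stayed within their intervals. The ratio in gained domains stayed above 1 in each alternative, and that in lost domains turned below 1 in 3. Depth, thresholds and the cause of the lists' different lengths were not tested.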
